A study of Mus musculus with 9 samples.

Results

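Hoxa13 sites that were called in the E11.0 autopod (embryonic day 11.0, the hand and foot region of the limb bud) and at neither later stage are described here across the genome. A site is an interval that the authors called as a peak in chromatin immunoprecipitation and sequencing (ChIP-seq), which recovers DNA bound by a protein. The members are the peaks of the E11.0 list that shared no base pair with any Hoxa13 peak of E11.5 or E12.5. They numbered 19311 of the 50890 E11.0 peaks, or 37.9% (95% interval 37.5 to 38.4), out of 243649 peaks in the 5 lists of the series.

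Hoxa13 was precipitated with a home-made antibody from E11.0 autopods, from whole limb buds of E11.5 and from limb buds of E12.5, all of wild-type ICR mice. Each of these stages has a single Hoxa13 library. For Hoxa11 there are replicates 1 and 2, both from E11.5 limb buds. Per the labels' protocols, the E11.0 precipitation pooled 11 pairs of autopods, tissue of E11.5 was pooled by litter, and the E12.5 libraries followed another published procedure. The labels do not say whether the Hoxa11 replicates, made with another home-made antibody, came from separate litters. Stage, dissected tissue and, for E12.5, procedure therefore cannot be told apart in any list, and no difference between stages has a replicate check.

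Hoxa13 belongs to the most posterior group of Hox homeodomain transcription factors and is needed to form the digits and the wrist and ankle. Hoxa11, a related factor, is expressed more proximally and is known for its role in the forearm and lower leg. Both proteins act by binding enhancers, often far from the genes they control, and homeodomains of this kind recognise short AT-rich sequences, so peaks of both can fall at the same place.

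Beside the 50890 peaks of E11.0, the later Hoxa13 lists had 143460 (E11.5) and 44699 (E12.5) peaks, and the Hoxa11 lists 2953 in replicate 1 and 1647 in replicate 2. The depth of sequencing is unknown, and the Hoxa13 lists hold positions with no height or score. A peak that is missing from a list was not called there, which does not measure how much Hoxa13 was bound. Peaks are not replicates: every interval printed is an exact binomial (Clopper-Pearson) or Newcombe interval over peaks and covers counting error only. All positions are 1-based in the mouse build mm9, and no gene annotation of that build was used.

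Most E11.0-alone sites had a later Hoxa13 peak within 10 kb, as did most positions of the placed chromosomes given the length of the later lists. The distance from a member to the nearest later peak had a median of 5274 bp, with an interquartile range of 2165 to 11375 bp. Of the 19311 members, 2345 (12.1%, 11.7 to 12.6) lay within 1 kb of a later peak, 13747 (71.2%) within 10 kb and 18934 (98.0%) within 50 kb. The nearest later peak belonged to the E11.5 list, by far the longest, for 16197 members (83.9%) and to the E12.5 list for 3107 (16.1%). The median distance was 6189 bp to an E11.5 peak and 16531 bp to an E12.5 peak. A group of 5564 members (28.8%) had no later peak within 10 kb.

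As background, all positions were taken at which a peak of 224 bp, the members' median width, would share no base with a later peak, and the share of them within the same distance of one was counted. They were counted over placed chromosomes, from the first to the last Hoxa13 peak, with assembly gaps included. Within 1 kb of a later peak of either stage lay 12.0% of placed members, against 11.1% of such positions, and within 10 kb 71.6% (70.9 to 72.2), against 62.8%. For E11.5 peaks the shares within 10 kb were 67.0% and 60.1%, and for E12.5 peaks 35.7% (35.0 to 36.4) and 25.9%. These values are a description, since the rule used the same lists. E11.0 peaks shared with a single later stage have such a distance to the other stage only. No E12.5 peak lay within 10 kb of 64.0% (63.3 to 64.7) of members and 62.4% (61.6 to 63.1) of peaks shared with E11.5 only. No E11.5 peak lay within 10 kb of 33.6% (32.9 to 34.3) of members and 30.2% (28.2 to 32.3) of peaks shared with E12.5 only. On placed chromosomes outside the densest 1 Mb windows the latter shares were 34.0% and 33.8%.

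**Figure D1:**
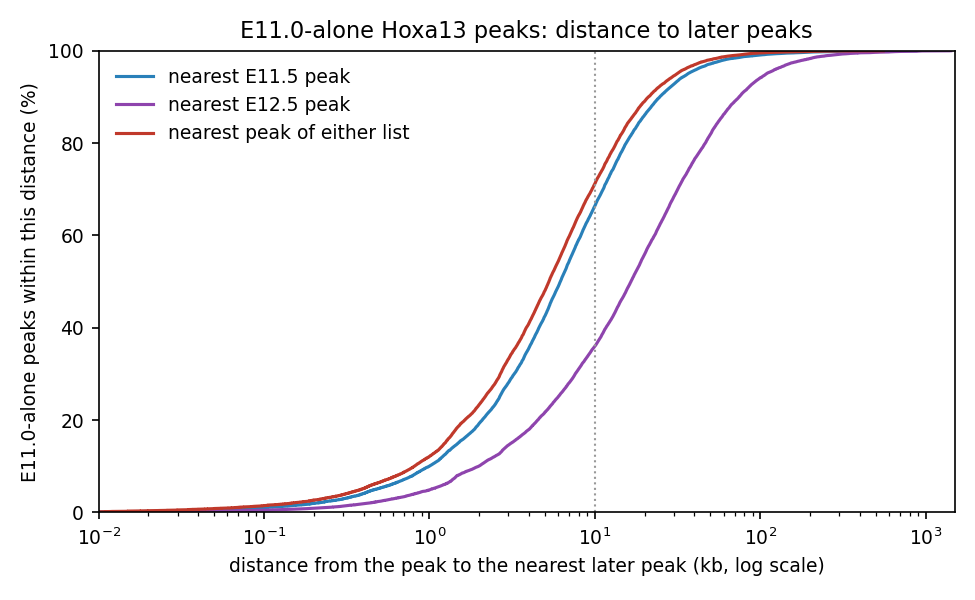
Cumulative share of the 19311 E11.0-alone peaks (vertical axis, %) against the distance to the nearest later Hoxa13 peak (horizontal axis, kb, log scale), for the E11.5 list, the E12.5 list and either list; the dotted line marks 10 kb. The curve for either list passes 12.1% at 1 kb and 71.2% at 10 kb, and the E12.5 curve lies lower at both distances.

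The rule separates peaks that can lie almost side by side. Only 1 member touched a later peak without sharing a base, on chromosome 1 from 3378858 to 3379140, and 29 members lay within 10 bp of one. The next nearest members lay 2 bp from a later peak, on chromosome 1 from 121679595 to 121679785, chromosome 10 from 104786996 to 104787182 and chromosome 4 from 145338762 to 145338948. The fifth lay 3 bp away, on chromosome 12 from 28105867 to 28106188. Just outside the rule, 4 E11.0 peaks shared a single base with a later peak, on chromosome 10 from 37511668 to 37511859, chromosome 16 from 3253720 to 3253916, chromosome 17 from 73562638 to 73562842 and chromosome 4 from 146804119 to 146804355. The next, on chromosome 14 from 13990573 to 13990798, shared 2 bp. Such borderline cases were few: 40 E11.0 peaks outside the rule shared at most 10 bp, and the median shared length of the 31579 was 228 bp.

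The widest E11.0-alone sites were still short intervals. The widest of all spanned 1165 bp on chromosome 19 from 37374529 to 37375693, with an E11.5 peak 359 bp away and an E12.5 peak 530 bp away. The second spanned 1134 bp on chromosome 6 from 40498975 to 40500108, with an E11.5 peak 1171 bp away and an E12.5 peak 1615 bp away. The others of the 5 widest lay on chromosome 13 from 66147434 to 66148313 (880 bp), chromosome 1 from 112073242 to 112074084 (843 bp) and chromosome 5 from 146262783 to 146263623 (841 bp). Of these, the chromosome 5 site was the most isolated: its nearest E11.5 peak was 23378 bp away, its nearest E12.5 peak 18204 bp and its nearest E11.0 peak 38008 bp.

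Among members outside the densest 1 Mb windows and with no later peak within 10 kb, the same chromosome 5 site was the widest. It was followed by chromosome 4 from 88413832 to 88414594 (763 bp), with later peaks no nearer than 21813 bp. Next came chromosome 12 from 116510679 to 116511439 (761 bp), chromosome 2 from 5699442 to 5700171 and chromosome 8 from 116918601 to 116919330 (730 bp each). In all, 5145 members (26.6%) on placed chromosomes met these conditions, with a median width of 222 bp. Isolated E11.0-alone sites were thus as narrow as the members in general.

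E11.0-alone peaks were narrower than E11.0 peaks found again later. Their median width was 224 bp (interquartile range 194 to 273 bp), against 262 bp (212 to 329 bp) for the other 31579 E11.0 peaks. By class, the median was 244 bp for peaks shared with E11.5 only, 249 bp for those shared with E12.5 only and 289 bp for those found at all 3 stages. The narrowest width in the E11.0 list was 187 bp, and 3624 members (18.8%) had exactly that width, against 3199 other peaks (10.1%). Widths over 400 bp occurred in 647 members (3.35%), against 3609 other peaks (11.4%).

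Read the other way, the share of E11.0 peaks that were members was lower in each wider class. It was 53.1% (51.9 to 54.3) among the 6823 peaks of 187 bp, 41.7% among those of 226 to 250 bp and 25.5% among those of 301 to 400 bp. Of the 720 peaks of 601 bp or more, 52 (7.22%, 5.44 to 9.36) were members. A wide peak has more sequence on which to meet a later peak, so width and the rule are not independent, and these values are a description without a test.

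**Figure D2:**
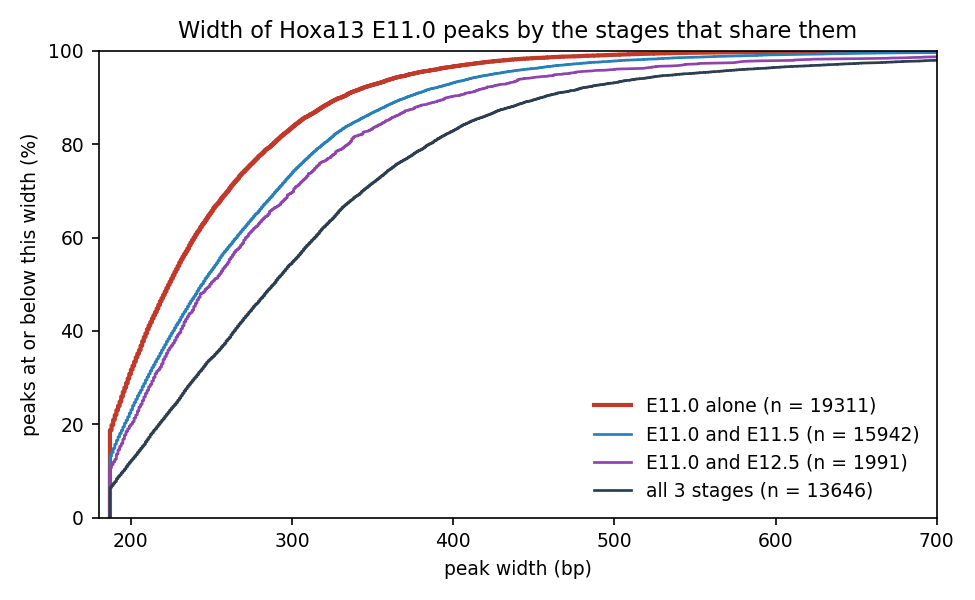
Cumulative share of E11.0 Hoxa13 peaks (vertical axis, %) up to a given width (horizontal axis, bp, cropped at the right), 1 line per class of peak. The line of the E11.0-alone peaks lies to the left of the others, with medians of 224 bp for E11.0 alone and 289 bp for peaks of all 3 stages.

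E11.0-alone sites were spread over every placed chromosome, with chromosome X standing highest among the large ones. On the 19 autosomes the share of E11.0 peaks that were members ran from 31.6% on chromosome 16 to 44.3% on chromosome 7, with a median of 36.0%. Chromosome 7 (interval 42.3 to 46.3) was picked as the highest of the 19, and chromosome 4 came next, with 38.4% (36.7 to 40.1). A raised chromosome 7 share was not particular to members. Chromosome 7 held 5.60% of members and 5.47% (4.52 to 6.57) of peaks shared with E12.5 only. It held 4.28% of those shared with E11.5 only and 4.16% of those of all 3 stages. On chromosome X, 1860 of 3259 E11.0 peaks were members, or 57.1% (55.4 to 58.8). On chromosome Y it was 26 of 52 (35.8 to 64.2%), and on unplaced sequence and the mitochondrial genome 501 of 972 (51.5%).

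Chromosome X thus held 9.63% of the E11.0-alone peaks, against 4.43% of the other E11.0 peaks, a difference of 5.20 percentage points (4.73 to 5.68). The other peaks were not alike in this: chromosome X held 3.39% of those shared with E11.5 only and 4.43% of those of all 3 stages, but 255 of the 1991 shared with E12.5 only (12.8%, 11.4 to 14.4). A raised chromosome X share was therefore not particular to E11.0-alone sites, and the difference between members and peaks shared with E12.5 only was -3.18 points (-4.77 to -1.72). With the 26 densest 1 Mb windows left out, 10 of them on chromosome X, the shares were 6.58% for members and 2.61% for all other E11.0 peaks. Without unplaced sequence as well they were 6.77% for members and 6.30% (5.14 to 7.64) for peaks shared with E12.5 only, a difference of 0.46 points (-0.911 to 1.64). The later lists held few peaks there relative to the early one: chromosome X had 1.39 E11.5 peaks for each E11.0 peak, while the autosomes had between 2.32, on chromosome 7, and 3.46, on chromosome 11. Across the 19 autosomes this ratio and the share of members had a Spearman correlation of -0.71. That value is a description, since both quantities use the same 2 lists and the rule itself counts overlaps with E11.5. Whether the uneven later lists account for the chromosome X share was not tested.

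**Figure D3:**
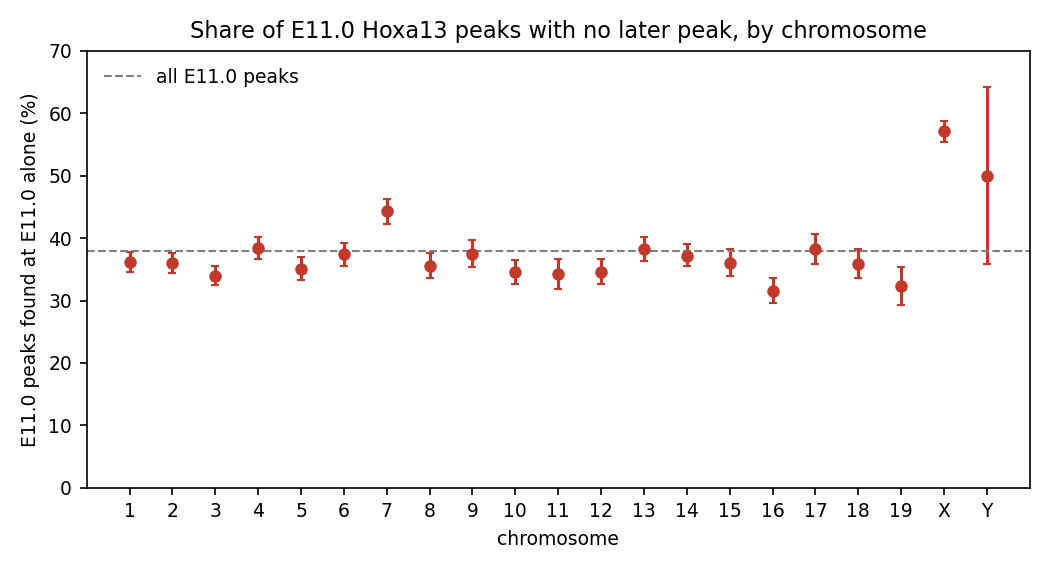
Share of E11.0 Hoxa13 peaks that were found at E11.0 alone (vertical axis, %), by chromosome; bars are exact 95% binomial intervals over peaks and the dashed line is the share over all E11.0 peaks, 37.9%. Chromosome X lies at 57.1% and chromosome 7 at 44.3%, and the other autosomes between 31.6% and 38.4%.

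Along the chromosomes E11.0-alone sites were common rather than confined to a few places. A member occurred in 2460 of the 2583 placed 1 Mb windows that held any Hoxa13 peak, with a median of 6 and an interquartile range of 3 to 10 members per window. The 10 richest windows together held 861 members (4.46%), and 6 of them were on chromosome X. The richest was on chromosome 13 from 66000001 to 67000000, with 173 members among 272 E11.0 peaks, beside 118 E11.5 and 39 E12.5 peaks. The window before it, from 65000001, held 86 members among 178 E11.0 peaks.

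On chromosome X the window from 31000001 held 104 members of 181 E11.0 peaks, that from 3000001 held 103 of 180 and that from 4000001 held 93 of 172. The windows from 30000001, 121000001 and 32000001 held 82, 62 and 55 members. The remaining 2 of the 10 were chromosome 14 from 42000001, with 52 members, and chromosome 4 from 146000001, with 51. All 10 were dense, a term used here for windows whose number of peaks, in at least 1 Hoxa13 list, lay more than 3 interquartile ranges above the third quartile. The 26 dense windows held 1417 members (7.34%), against 5.12% of the other E11.0 peaks. Among peaks shared with E12.5 only the share was higher than among members, 340 of 1991 (17.1%, 15.4 to 18.8). Repeated or multi-copy sequence was not screened out, and its part in these windows was not tested.

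E11.0-alone sites had a close E11.0 neighbour somewhat more often than the other E11.0 sites taken as a whole, and less often than those shared with E12.5 only. Another E11.0 peak was found within 10 kb for 49.7% of members (49.0 to 50.5), against 44.1% of other E11.0 peaks (43.5 to 44.6), a difference of 5.68 points (4.79 to 6.58). Among peaks shared with E12.5 only it was 56.8%, a difference of -7.06 points for members against these (-9.33 to -4.76). On placed chromosomes outside dense windows the shares were 46.0% for members and 46.6% for peaks shared with E12.5 only. The difference from all other E11.0 peaks was 1.33 points (0.408 to 2.25) when a later peak within 1000 bp also counted as shared. The nearest E11.0 neighbour was itself a member for 45.2% of members, against 33.9% of the other peaks, a difference of 11.3 points (10.4 to 12.2). For peaks shared with E12.5 only it was 43.2%, and the difference of 1.96 points for members against these had an interval that includes 0 (-0.339 to 4.23). On placed chromosomes outside dense windows the nearest neighbour was a member for 44.3% of members and 33.3% of all other peaks. Most members stood singly in the list: 13809 (71.5%) had no adjacent member in the E11.0 list within 10 kb, 3796 came in runs of 2 and 254 in the 42 runs of 5 or more.

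The longest run held 10 members over 28.7 kb on chromosome 13, from 66922685 to 66951375, with no E11.5, E12.5 or Hoxa11 peak between its ends. Runs of 8 members lay on chromosome 13 from 66187923 to 66220240 and from 66269935 to 66286593, and on chromosome X from 3696323 to 3722974. Another run of 8 lay outside the dense windows, on chromosome 10 from 99789587 to 99811314, over 21.7 kb. No later Hoxa13 peak fell inside any of these 5 runs except 1 E11.5 peak in the first of the runs of 8 on chromosome 13.

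E11.0-alone sites coincided with Hoxa11 less often than other E11.0 sites did. Hoxa11 was not used to choose them, but the rule leaves out every E11.0 peak that shares a base with a later Hoxa13 peak. Of the E11.5 Hoxa13 peaks, 632 found at E11.5 alone and 1459 shared with another stage met replicate 1, which has 2953 peaks. For replicate 2, with 1647 peaks, it was 267 and 885. The share that meets Hoxa11 is therefore not independent of the rule. In replicate 1, 20 of 19311 members met a Hoxa11 peak by at least 1 bp (0.104%, 0.0633 to 0.160), against 715 of 31579 other E11.0 peaks (2.26%, 2.103 to 2.434) and 1.44% of all E11.0 peaks. In replicate 2 it was 32 members (0.166%, 0.113 to 0.234), against 483 other peaks (1.53%, 1.397 to 1.671) and 1.01% of all. The difference was -2.16 points (-2.33 to -1.99) in replicate 1 and -1.36 points (-1.51 to -1.22) in replicate 2. Both replicates gave the same direction. They were set against the same split of a single E11.0 list, so their agreement is no check of that split, and the intervals cover counting error only.

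Taking either replicate, 38 members met Hoxa11 (0.197%), against 872 other E11.0 peaks (2.76%) and 1.79% of all E11.0 peaks. Peaks found at E11.0 and E11.5 but not E12.5 met it in 110 cases (0.690%, 0.567 to 0.831), and peaks of all 3 stages in 719 (5.27%, 4.90 to 5.66). Those shared with E12.5 only met it in 43 of 1991 cases (2.16%, 1.57 to 2.90). Seen from the Hoxa11 lists, 19 of 2953 replicate 1 peaks (0.643%) and 30 of 1647 replicate 2 peaks (1.82%) met an E11.0-alone site, while 687 (23.3%) and 474 (28.8%) met another E11.0 peak. Hoxa11 came from E11.5 limb buds, and by its title the input of replicate 1 also served Hoxa13 at E11.5. Whether the shared stage, tissue or input contributes to the contrast was not tested.

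**Figure D4:**
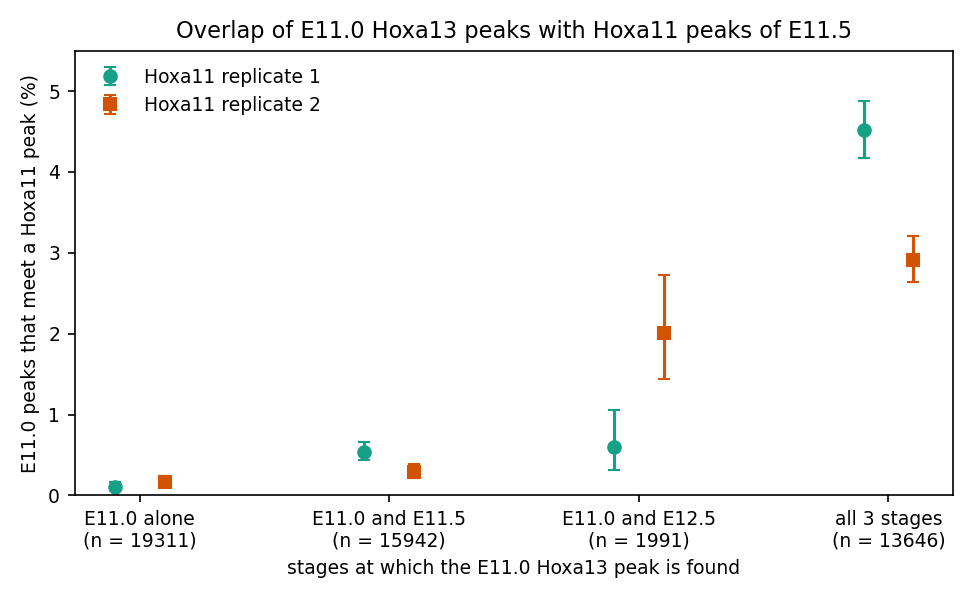
Share of E11.0 Hoxa13 peaks that met a Hoxa11 peak of E11.5 by at least 1 bp (vertical axis, %), by the stages at which the Hoxa13 peak was found, for both Hoxa11 replicates; bars are exact 95% binomial intervals over peaks. E11.0-alone peaks lie at 0.104% and 0.166%, below each other class in either replicate. In replicate 2 their interval (0.113 to 0.234) overlaps that of peaks found at E11.0 and E11.5 (0.289%, 0.211 to 0.385).

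The contrast was present in each of 4 width classes. The widest class is open at the top, with members up to 1165 bp and other peaks up to 11366 bp, so widths are not matched within it. In the narrowest class, 187 to 203 bp, 1 of 6629 members met a Hoxa11 peak of either replicate, against 111 of 6326 other peaks (1.75%, 1.45 to 2.11). In the class of 246 to 309 bp it was 8 of 4387 members (0.182%), against 164 of 8226 other peaks (1.99%). Among peaks of 310 bp and more it was 23 of 2719 members (0.846%, 0.537 to 1.27), against 462 of 9897 (4.67%, 4.26 to 5.10). Members of the widest class thus met Hoxa11 more often than narrower ones, and less often than other peaks of that class. Of the 38 members behind these counts, 22 lay in a single stretch of chromosome X, described below. The width classes were not counted without it.

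The few E11.0-alone sites with Hoxa11 were mostly in a single place. Of the 38, 22 lay on chromosome X between 92125301 and 92174291, a stretch of 49.0 kb, and 16 elsewhere. That 1 Mb window, from 92000001, was dense and held 41 members among 82 E11.0 peaks, with 35 Hoxa11 peaks in replicate 1 and 31 in replicate 2. Without it, 0.0830% of members and 2.71% of other E11.0 peaks met Hoxa11. On placed chromosomes outside all dense windows 13 members remained, 2 of them met in replicate 1 and 13 in replicate 2. These were 0.0747% of the members there, against 2.38% of the other and 1.53% of all E11.0 peaks there.

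Both Hoxa11 replicates met 14 members (0.0725%), against 0.668% of all E11.0 peaks. By the authors' score for replicate 2, the first of these were neighbouring members on chromosome 12, from 55782169 to 55782472 and from 55782724 to 55782948. They shared a single Hoxa11 peak, from 55782457 to 55783143, with a fold enrichment of 4.10 by the authors, and the nearest later Hoxa13 peaks lay 1348 and 872 bp away, at E12.5. The next 3 lay in the chromosome X stretch, from 92140084 to 92140562, 92154592 to 92154955 and 92160139 to 92160620, with Hoxa11 fold enrichments of 3.03, 2.88 and 2.86. An E11.5 Hoxa13 peak lay only 15 bp from the first of these 3. Over the 30 replicate 2 peaks that met a member, the authors' median fold enrichment was 2.72, against 3.97 for those that met another E11.0 peak and 3.90 for the whole list. Of the 32 members met in replicate 2, only 13 lay on placed chromosomes outside dense windows, and the fold enrichment was not taken for these apart.

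Windows of known limb genes held relatively few E11.0-alone sites. The 22 windows of 1 Mb were placed from the known mm9 positions of the genes, without an annotation of that build in hand, and sites in them were not assigned to genes. For 4 of them, those of Hand2, Sall1, Irx3 and Irx5, and Tbx3 and Tbx5, the gene lies in another megabase in the later build GRCm38, so that their placement was not checked to the megabase. They held 413 E11.0 peaks, of which 97 were members (23.5%, 19.5 to 27.9), against 37.9% over all E11.0 peaks. Without those 4 windows it was 77 of 341 (22.6%, 18.3 to 27.4). The windows also had more later peaks, with a median of 68 E11.5 peaks against 52 over the 2572 placed windows that hold an E11.0 peak. Among the windows with the most E11.5 peaks, 79 to 164 each, 8 limb windows had 52 members of 239 E11.0 peaks (21.8%, 16.7 to 27.5), against 5307 of 16252 (32.7%) in the 501 others. In each of the other 4 density classes the limb share was also the lower, over 3 to 82 E11.0 peaks. The limb interval included the others' share in the class of fewest E11.5 peaks (0 of 3, up to 70.8%, against 50.4%). It also did so at 60 to 78 E11.5 peaks (24 of 82, 19.7 to 40.4%, against 36.7%). At 32 to 46 and 47 to 59 E11.5 peaks it ended just below, at 41.2% against 42.1% and 36.4% against 38.1%. The windows were chosen by gene, they are few, and chance was not tested.

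The Hox cluster windows differed among themselves. The HoxA window, on chromosome 6 from 52000001 to 53000000, holds Hoxa13 itself and Hoxa11. It had no member among 20 E11.0 peaks, which allows a share of up to 15%, and 12 of its peaks were found at all 3 stages. The HoxD window, on chromosome 2 from 74000001 to 75000000, holds the genes Hoxd9 to Hoxd13 that pattern the limb, and had 4 members among 34 E11.0 peaks (11.8%, 3.30 to 27.5). The HoxB window had 0 of 8, which allows up to 37.5%, and the HoxC window 5 of 10 (18.7 to 81.3%). Together the 4 windows gave 9 members of 72 E11.0 peaks (95% interval 5.88 to 22.4%).

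The 4 members of the HoxD window were 243, 187, 239 and 187 bp wide, in order of position. They ran from 74373482 to 74373724, 74723121 to 74723307, 74760479 to 74760717 and 74810923 to 74811109. The first lay 137 bp from an E11.5 peak and 197 bp from an E12.5 peak, and the third 756 and 878 bp. The other two, each of the minimum width of 187 bp, lay 7021 and 9145 bp from the nearest E11.5 peak.

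Windows of genes of the Shh and BMP pathways held between 4 and 8 members each. Shh, the posterior morphogen that sets digit identity, and its distant limb enhancer lie in neighbouring windows of chromosome 5. These held 4 members of 10 and 4 of 14 E11.0 peaks. The 4 in the enhancer window ran from 29370348 to 29370629, 29506861 to 29507202, 29535292 to 29535547 and 29657198 to 29657407, at 194, 4649, 3170 and 1482 bp from the nearest E11.5 peak. The window of Grem1, a BMP antagonist, had 4 of 8, that of Gli3, a transcription factor of the Shh pathway, 8 of 30, and that of Bmp2, a secreted growth factor, 6 of 19. The window of Hand2, a transcription factor of the posterior limb bud, had the most members of the 22, 19 of 46 E11.0 peaks (41.3%, 27.0 to 56.8), but it is among the 4 whose placement was not checked to the megabase.

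Windows of genes with proximal roles ranged widely. That of Meis1, a homeodomain factor of the proximal limb, had 12 of 29 (41.4%, 23.5 to 61.1), while that of Meis2, a related gene, had 1 of 22 (4.55%, 0.115 to 22.8). Shox2, needed for the upper arm and thigh, had 7 of 31, and the window of Irx3 and Irx5, with the limit on placement given above, had 1 of 17. For Sall1, Sox9 and the neighbours Tbx3 and Tbx5, none of the 6, 5 and 3 E11.0 peaks was a member, counts at which no share can be set apart from the others.

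**Figure D5:**
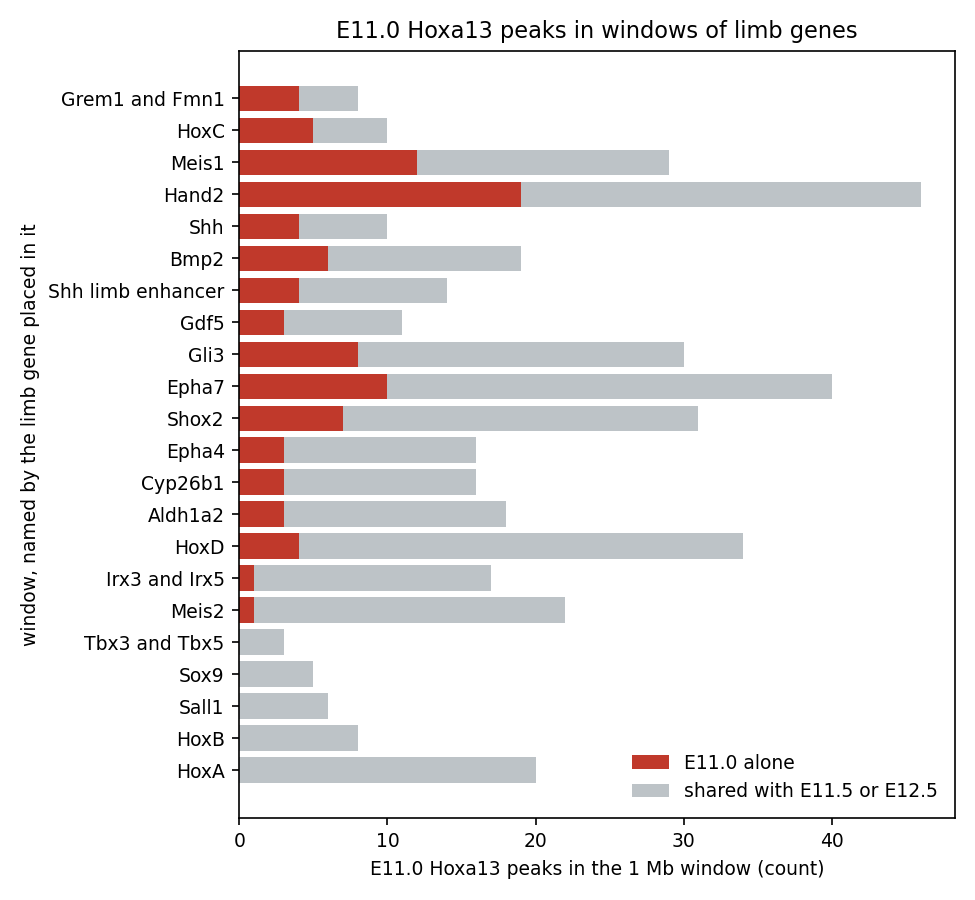
Number of E11.0 Hoxa13 peaks (horizontal axis, count) in each of the 22 windows of 1 Mb named by a limb gene (vertical axis), split into peaks found at E11.0 alone and peaks shared with a later stage. The HoxA window has 0 of 20 at E11.0 alone and the Meis1 window 12 of 29.

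Peaks found at 1 stage alone were also compared between stages. They made up 37.9% of the E11.0 list, 67.4% of the E11.5 list and 24.5% of the E12.5 list, shares that depend on the unequal lengths of the lists. Chromosome X held 9.63% (9.22 to 10.1) of the E11.0-alone peaks, 3.02% (2.91 to 3.13) of the E11.5-alone peaks and 5.69% (5.26 to 6.14) of the E12.5-alone peaks. Without dense windows and unplaced sequence these shares were 6.77%, 2.92% and 3.74%. A Hoxa11 peak of either replicate met 0.197% (0.139 to 0.270) of E11.0-alone, 0.754% (0.701 to 0.811) of E11.5-alone and 1.02% (0.844 to 1.23) of E12.5-alone peaks. Among peaks shared with another stage it was 2.76% at E11.0, 3.57% (3.41 to 3.74) at E11.5 and 5.08% (4.85 to 5.32) at E12.5. A Hoxa11 share below that of shared peaks was thus not particular to E11.0-alone sites. Median widths of the alone peaks were 224, 267 and 135 bp, and the widths of the lists themselves differed in the same order, so no comparison of width between stages is made.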

How the data were processed

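The submitters' processing notes name CASAVA 1.4, Bowtie2 2.2.2, MACS2 2.1.0 and the build mm9, with no role, order, threshold or use of input stated in the sources used here. Each of the 5 deposited lists belongs to 1 library. In 4 of them the authors deposited chromosome, start and end only. Hoxa11 replicate 2 has 10 columns in narrowPeak order: the authors' score, a fold enrichment (the peak caller's ratio to background), −log10 p and q values as deposited, and a summit. Only the score and the fold were used, to rank and describe peaks of that list. The 4 input libraries have no file analysed here.

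Overlaps, gaps and nearest neighbours were computed in Python 3.11.15 with NumPy 2.4.6, pandas 2.3.3 and SciPy 1.17.1, and checked on simulated intervals and against bedtools 2.31.1. Peaks overlapped when they shared at least 1 bp. A gap is the number of bases between peak ends. Windows were 1 Mb, assigned by peak midpoint. Intervals are at 95% and cover counting error over peaks, which are not independent. No test across peaks was run, since the rule used these lists and each Hoxa13 stage has 1 library. The background of distances was counted over all positions, with no random draws, and was added after seeing the data. For a count of 0 in a Hox cluster window, the upper limit given is 3 peaks of the total. For a count of 0 in a density class, it is the upper end of the exact interval.

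The members, windows and lists were chosen with earlier results of these data known. Regions are named by rule: the 5 widest members, the 5 widest isolated members, up to 5 that meet both Hoxa11 replicates by score, the 5 nearest to each side of the rule, the 10 richest windows, the 5 longest runs, and members in the HoxA, HoxD and Shh enhancer windows. Of the 22 limb genes tried, all 22 lie on the same chromosome in RefSeq's GRCm38.p6 annotation and 18 in the same 1 Mb, the only use made of that build. No genome of build mm9 was in hand, so sequences, motifs and gene distances of the members were not analysed here.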

Additional observations from a re-analysis of the deposited data

How the results depend on the processing

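Of 27 alternatives to the 6 results, 12 were counted as moved. That means beyond the interval of the value reported or, for the number of members, by over 1.5 times. The interval is at 95% except for width, where it joins the ends of separate 95% intervals of the 2 medians. The 19 alternatives to differences all kept their direction. The number of members was 19311 by the 1 bp rule, 24360 (47.9%) under 50% reciprocal overlap and 16966 (33.3%) when a later peak within 1000 bp counted as shared. It was 28203 (55.4%) when the E11.5 list was limited to its widest peaks, as many as E12.5 holds. These shares lie outside the interval of the 1 bp rule, 37.5 to 38.4%, though by the ratio of 1.5 they were not counted as moved. Among the wider 50% of E11.0 peaks, a list shorter by construction, the number of members was 7106, or 28.2%. Autosomes outside dense windows, chosen after seeing the data, gave 36.1%. The median width of members minus other peaks, -38 bp, was -45 bp under reciprocal overlap, -35 bp with the 1000 bp rule and -49 bp with the limited E11.5 list. The Hoxa11 difference of -2.56 points ranged from -2.16 to -1.36 points when either replicate was left out. It was -1.66 under 50% reciprocal overlap with Hoxa11, -3.00 with a Hoxa11 peak within 1000 bp and -3.02 among wider peaks. Without the chromosome X window from 92000001, which holds the most members that meet Hoxa11 and was also chosen after seeing the data, it was -2.62. The share of members in limb gene windows without the 4 not checked to the megabase, likewise chosen later, was 22.6%. The chromosome X difference of 5.20 points was 3.96 without dense windows. The excess of members with an E11.0 neighbour, 5.68 points at 10 kb, was 1.53 at 50 kb and 1.33 (0.408 to 2.25) with the 1000 bp rule, and the cause was not tested. No paired analysis was possible because only Hoxa11 has replicates and no test was run. Sequence and gene context, planned only for a genome of the files' build, was not run. Unknown read depth limits every list: a site missing from a later list was not called there, and its signal is not known.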

Other observations

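Outside the dense windows, the placed 1 Mb window with the most E11.0-alone sites was on chromosome 2. The window from 176000001 to 177000000 held 40 members among 60 E11.0 peaks, beside 37 E11.5 and 3 E12.5 peaks, and the window before it held 35 of 53, beside 33 E11.5 peaks and no E12.5 peak. Both lie next to each other and held no Hoxa11 peak in either replicate. Between them by count came chromosome 13 from 13000001 to 14000000, with 36 of 71 (50.7%), and chromosome X from 52000001 to 53000000, with 36 of 48, beside 17 E11.5 and 9 E12.5 peaks. By share, the chromosome X window (75%) and chromosome 7 from 5000001 to 6000000, with 32 of 43 (74.4%), lay above the first chromosome 2 window (66.7%).

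Windows with fewer E11.5 peaks had a higher share of E11.0-alone sites. Placed windows were put into 5 classes by that number. In the class with at most 31 E11.5 peaks, 50.4% of E11.0 peaks were members, and in the class with 79 or more it was 32.5%. Chromosome X exceeded the whole in each class, at 61.7% in the first and 43.8% in the last, with dense windows included. Its 249 E11.0 peaks in the last class lay in the dense windows from 120000001 (47 members of 117) and 121000001 (62 of 132). At 60 to 78 E11.5 peaks, the dense windows from 3000001, 4000001, 30000001 and 31000001 held 180, 172, 159 and 181 of its 792. At 47 to 59, the dense window from 92000001 held 82 of its 106. These are values from the same lists as the rule and carry no test.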
